A study of Mus musculus with 12 samples.

Results

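Serpins are a large family of proteins that mostly inhibit serine proteases by a suicide mechanism: the target protease cleaves an exposed reactive-centre loop, the inhibitor snaps into a more stable fold, and the protease is left trapped and distorted. Clade A members are mainly secreted plasma and acute-phase inhibitors, clade B members act mostly inside cells, and the smaller clades C to I hold antithrombin, heparin cofactor II, protease nexin, the plasmin inhibitor, the C1 inhibitor, the collagen chaperone of the endoplasmic reticulum and neuroserpin. In the gut, serpins meet proteases of neutrophils, mast cells, cytotoxic lymphocytes and the plasminogen system. Members were all genes whose symbol, taken from the RefSeq accession of an array probe, begins with Serpin, a clade letter from a to i and a number. This gave 55 genes on 69 probes, of 32168 genes with a probe in all. The rule itself used no measured value, though members were chosen with earlier results of these data known.

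Messenger RNA was measured on single-colour mouse oligonucleotide arrays, 3 for each of 4 groups of female BALB/c mice that were 5 to 7 weeks old at the start, all collected on day 100. The AOM/DSS group is neoplasms from mice that received the colon carcinogen azoxymethane (AOM) once at 12.5 mg/kg, and then dextran sulfate sodium (DSS, which injures the epithelium and causes colitis) in drinking water from day 5, for 5 days of each 21-day cycle, 3 times. AOM arrays hold colorectal epithelium of mice given 10 mg/kg AOM weekly, 6 times, without DSS. DSS arrays hold epithelium after the DSS cycles alone, and control arrays epithelium of mice given neither agent. Epithelium of the AOM, DSS and control mice was scraped with a slide into Trizol, whereas neoplasms were clipped with scissors into an RNA storage solution, so treatment and way of collection cannot be told apart for AOM/DSS. The AOM schedule of the AOM/DSS group also differed from that of the AOM group. The labels do not say whether the 3 arrays of a group come from separate mice, so p-values cover only the variation among these arrays, part of which may be technical.

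The labelled epithelium carried its defining markers: the summed level of 10 pan-epithelial genes was 682 to 821 times the array's 75th percentile on AOM/DSS arrays, 1580 to 1930 on AOM arrays, 1490 to 2700 on DSS arrays and 1290 to 2440 on control arrays. The 75th percentile of processed intensity, by which each array was scaled, ran from 1115 to 1185 for AOM/DSS and from 393 to 694 for the remaining 9 arrays. The number of arrays limits the precision of every value. Control replicates 1 and 2 stood apart from control replicate 3 in markers of other cell types, and results without these 2 arrays are given below. That setting leaves replicate 3 as the only control array, so a call can be lost there without a smaller difference. Replicate 3 had the highest summed level of pancreatic acinar markers, 1040 against 110 and 89.5 on control replicates 1 and 2. Its fibroblast sum was 166, against 25.8 and 13.2. Which control arrays are typical was not tested. The 12 arrays lay on 3 slides: the first held AOM/DSS replicates 1 and 2 with AOM replicates 1 and 2, the second all DSS arrays with AOM replicate 3, and the third AOM/DSS replicate 3 with the control arrays. A fit with slide as a block therefore compares AOM/DSS with control only through AOM/DSS replicate 3.

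Of the 55 serpin genes, 12 were well above background on all 12 arrays, 22 on 1 to 11 arrays, and 21 on no array. The number of serpin genes well above background was 29 on each of the AOM/DSS arrays, 22 to 27 on AOM arrays, 20 to 25 on DSS arrays and 16 to 23 on control arrays. The lowest level at which a serpin or any other probe was well above background moved with the brightness of the array, from -5.25 to -4.89 on the AOM/DSS arrays and from -4.08 to -3.77 on the control arrays (log2, relative to the 75th percentile). More detected serpins on the AOM/DSS arrays therefore come with a lower detection limit there, and the part of that limit in the count was not tested. The filter asked that every array of some group be well above background, and 27 genes passed: 7 of 19 in clade A, 11 of 25 in clade B, the single members of clades C, D, G and H, 2 of 3 in clade E, both of clade F and 1 of 2 in clade I. A gene could enter through the group in which it is high, so the counts below describe these 27 genes and are set beside the same counts over all genes.

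**Figure D1:**
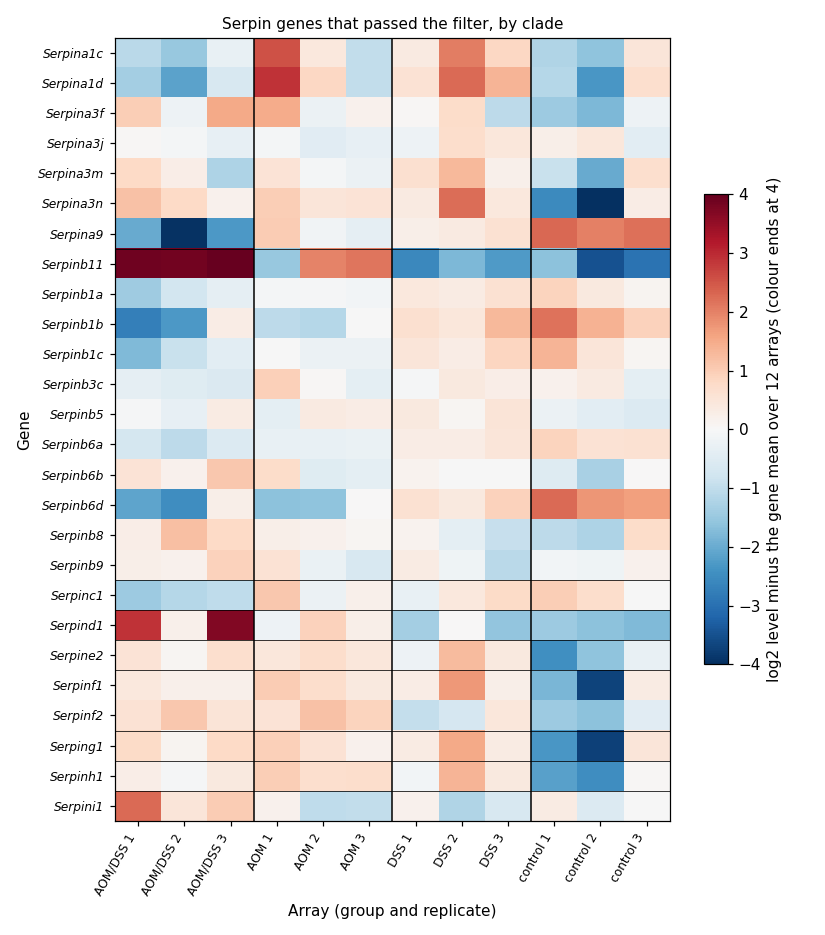
Level of 26 serpin genes that passed the filter (rows, grouped by clade) on each of the 12 arrays (columns), as log2 level minus the gene's mean over 12 arrays; red is higher and blue lower, and colours end at 4. Serpinb11 is red across the AOM/DSS arrays, Serpina9 is blue there and red in controls, and control replicates 1 and 2 are blue for Serpina3n, Serpine2, Serpinf1, Serping1 and Serpinh1 where control replicate 3 is paler.

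In AOM/DSS neoplasms against control epithelium, 10 serpin genes rose, 7 fell and 10 were not called, by limma's moderated test at a Benjamini-Hochberg adjusted p under 0.05 over 18953 genes. That is 63.0% of the 27, against 34.7% of all genes tested (17.2% higher, 17.5% lower), and the median log2 difference was 0.69 over the 27 genes and 0.03 over all. Among the 12 serpin genes well above background on every array, 3 rose and 6 fell, against 39.2% of 13718 genes called under that filter. In AOM against control epithelium, 8 serpin genes rose and 4 fell, 44.4% against 32.4% of all genes. In DSS against control epithelium none of the 27 passed, 9 had an unadjusted p under 0.05, and 0.327% of all genes were called. These 3 comparisons share the control arrays. The numbers called rested in part on single arrays: AOM/DSS against control gave 10 without AOM/DSS replicate 3 (27.4% of all genes), AOM against control gave 4 without AOM replicate 2 (10.4% of all), and DSS against control gave 6 without control replicate 3 (7.04% of all).

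Set against the other treated groups, AOM/DSS neoplasms differed from AOM epithelium in 4 serpin genes, 2 higher and 2 lower (14.8%, against 37.2% of all genes), and with median scaling in 9, 2 higher and 7 lower, beside 39.5% of all genes and a median of all genes of -0.36, against -0.04 as reported. They differed from DSS epithelium in 11, 3 higher and 8 lower (40.7%, against 35.9% of all genes). No serpin gene was called between DSS and AOM epithelium, where 4 had an unadjusted p under 0.05 and 0% of all genes were called higher and 0.0106% lower. The moderated F test for any group difference called 15 of the 27, or 55.6%, against 52.6% of all genes.

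**Figure D2:**
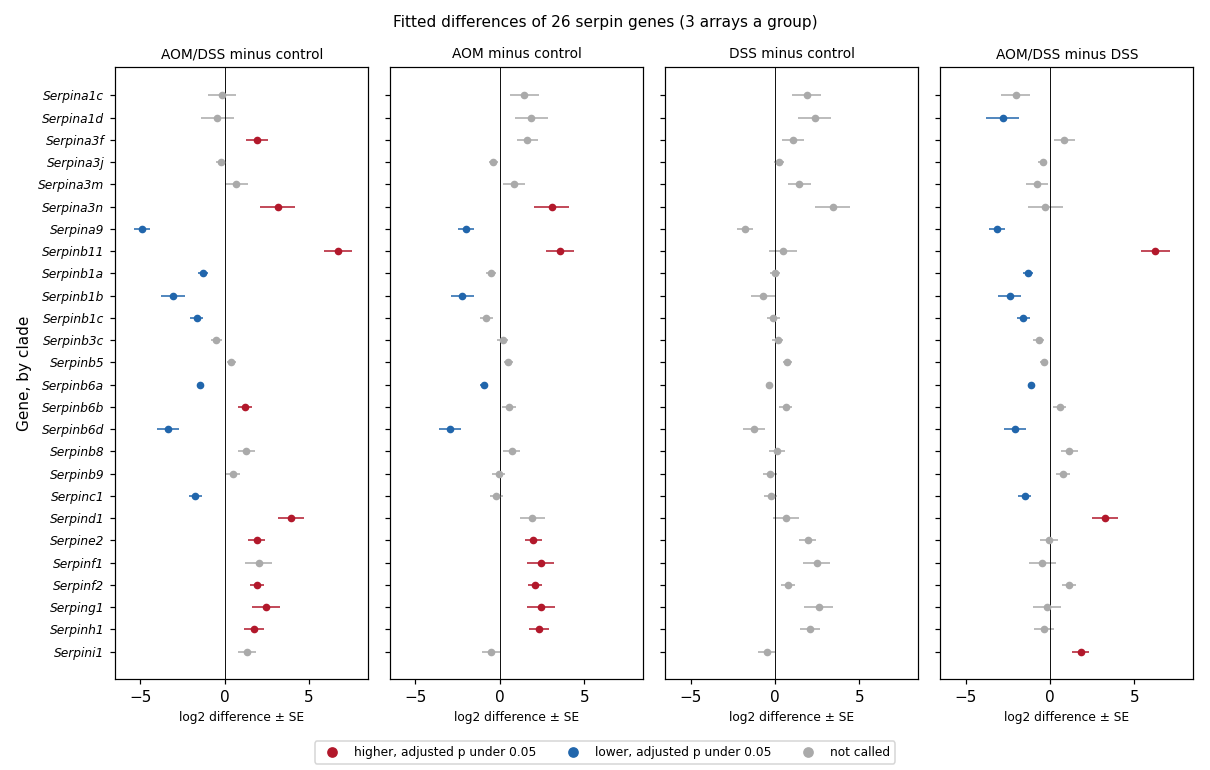
Fitted log2 difference of 26 serpin genes (points, with bars of 1 SE, 3 arrays a group) in AOM/DSS, AOM and DSS against control and in AOM/DSS against DSS; red is higher and blue lower at an adjusted p under 0.05, grey is not called. Serpinb11 lies farthest right in the AOM/DSS comparisons, the clade B genes Serpinb1a, Serpinb1b, Serpinb1c, Serpinb6a and Serpinb6d lie left in both AOM/DSS panels, and no point of the DSS minus control panel is coloured.

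Serpinb11, on chromosome 1, is an intracellular clade B serpin; the mouse protein inhibits trypsin, whereas the human one lacks inhibitory activity. Its log2 level was 2.19, 2.14 and 2.61 on the AOM/DSS arrays, -3.22, 0.29 and 0.44 on the AOM arrays, -4.29, -3.51 and -3.98 on the DSS arrays and -3.34, -5.18 and -4.65 on the control arrays. All AOM/DSS arrays stood above every other array, and AOM replicate 1 lay near the DSS and control arrays while the other AOM arrays lay between. The gene rose in AOM/DSS against control by 6.71 ± 0.84 (SE, 3 arrays each; adjusted p = 0.000292), against DSS by 6.24 ± 0.84 (adjusted p = 0.000762) and against AOM by 3.14 ± 0.84 (adjusted p = 0.0177). It also rose in AOM against control, by 3.57 ± 0.84 (adjusted p = 0.0143). In DSS against control the difference was 0.47 ± 0.84 (adjusted p = 0.76). Only 1 of 3 DSS arrays and 1 of 3 control arrays was well above background for this probe, and with normexp background correction the AOM/DSS minus control difference was 3.78 (adjusted p = 0.0102). The AOM/DSS calls held with slide as a block (7.00, 8.0 and 3.63 against control, DSS and AOM, with adjusted p of 0.00901, 0.0426 and 0.0462), whereas the AOM call was lost (3.38, adjusted p = 0.296), as it was without control replicates 1 and 2 (3.83, adjusted p = 0.17).

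Serpind1, on chromosome 16, encodes heparin cofactor II, a thrombin inhibitor made mainly by the liver. It read -1.28, -3.97 and -0.47 on the AOM/DSS arrays, -4.40, -3.26 and -3.96 on the AOM arrays, -5.54, -4.17 and -5.75 on the DSS arrays, and -5.64, -5.81 and -5.96 on the control arrays. AOM/DSS replicates 1 and 3 stood above every other array, while replicate 2 was within the AOM range; no DSS and no control array was well above background. It rose at least 4.07-fold in AOM/DSS against control (fitted difference 3.90 ± 0.76, adjusted p = 0.00335) and at least 4.51-fold against DSS (3.25 ± 0.76, adjusted p = 0.0101). These bounds set each dim array at its lowest signal well above background, or at the probe's own signal if that was higher. With slide as a block the call against control held (5.33, adjusted p = 0.0136). That fit sets only AOM/DSS replicate 3, the array with the highest level, against the control arrays. The call was lost with normexp (0.18, adjusted p = 0.891) and without control replicates 1 and 2 (4.05). Against DSS it was lost with slide as a block (2.4, adjusted p = 0.281) and with normexp (0.49, adjusted p = 0.726). The summed level of 10 hepatocyte markers was 1.22 to 2.54 on AOM/DSS arrays and 2.12 to 4.44 on control arrays, and the fibrinogen genes Fga and Fgb were well above background on no array.

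The 250 bases upstream of these 2 genes are shown because they rose most in AOM/DSS neoplasms against control, and those of Serpinb6d and Serpinb1b because these chromosome 13 genes fell most among clade B. They come from RefSeq on GRCm38.p6 and run 5′ to 3′ toward the gene start, and capitals mark matches to the motifs searched.
Serpinb11, chr1:107362064-107362313, plus strand: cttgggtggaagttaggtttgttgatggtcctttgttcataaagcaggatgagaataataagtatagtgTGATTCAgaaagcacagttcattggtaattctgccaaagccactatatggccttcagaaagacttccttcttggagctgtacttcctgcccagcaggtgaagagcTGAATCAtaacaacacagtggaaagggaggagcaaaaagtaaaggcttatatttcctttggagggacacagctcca
Serpind1, chr16:17331121-17331370, plus strand: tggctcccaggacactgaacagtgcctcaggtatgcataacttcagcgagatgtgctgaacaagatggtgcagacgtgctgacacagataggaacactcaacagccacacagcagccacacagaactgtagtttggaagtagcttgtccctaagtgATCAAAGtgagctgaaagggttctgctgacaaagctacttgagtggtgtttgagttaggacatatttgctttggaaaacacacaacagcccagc
Serpinb6d, chr13:33661155-33661404, plus strand: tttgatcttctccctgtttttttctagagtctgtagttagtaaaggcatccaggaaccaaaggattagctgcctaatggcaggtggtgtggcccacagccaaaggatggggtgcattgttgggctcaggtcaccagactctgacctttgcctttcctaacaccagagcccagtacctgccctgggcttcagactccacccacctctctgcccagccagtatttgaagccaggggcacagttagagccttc
Serpinb1b, chr13:33083853-33084102, plus strand: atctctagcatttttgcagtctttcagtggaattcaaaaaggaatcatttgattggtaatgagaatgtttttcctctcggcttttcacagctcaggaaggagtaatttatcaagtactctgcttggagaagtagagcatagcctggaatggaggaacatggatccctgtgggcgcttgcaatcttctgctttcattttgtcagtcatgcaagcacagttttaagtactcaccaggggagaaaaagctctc

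Both strands were searched for 4 motifs, TATAAA (the TATA box), TGANTCA (around the AP-1 site), TTCNNNGAA (the STAT site) and ATCAAAG (the TCF/LEF site). A promoter sequence was at hand for 45 of the 55 serpin genes, among 32851 promoters in all. The Serpinb11 promoter holds TGANTCA at 181 and at 76 bases upstream, with T or A in the middle where the AP-1 consensus has C or G. The Serpind1 promoter holds ATCAAAG at 94 bases upstream. Neither of the other 2 holds any of the 4 motifs. Over all promoters the shares were 12.4% for TATAAA, 6.75% for TGANTCA, 7.02% for TTCNNNGAA and 3.21% for ATCAAAG. Among the 22 filtered serpin genes with a promoter, 3 held TATAAA, 5 held TGANTCA, 2 held TTCNNNGAA and 1 held ATCAAAG. A match describes letters in this window and is not a shown binding site.

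Serpini1, on chromosome 3, encodes neuroserpin, an inhibitor of tissue plasminogen activator best known from neurons. Its log2 level was -0.89, -2.67 and -2.13 on the AOM/DSS arrays, -2.97, -4.15 and -4.12 on the AOM arrays, -2.98, -4.36 and -3.79 on the DSS arrays and -2.80, -3.69 and -3.17 on the control arrays. The AOM/DSS arrays lay above all 9 others, and 2 AOM, 1 DSS and 3 control arrays were well above background. The gene rose against AOM by 1.85 ± 0.52 (adjusted p = 0.0211) and against DSS by 1.81 ± 0.52 (adjusted p = 0.0226), and differed from control by 1.32 ± 0.52 (adjusted p = 0.0709). With slide as a block neither call held (1.78, adjusted p = 0.0917, and 1.37, adjusted p = 0.435), and each was lost without AOM/DSS replicate 1. The summed level of 10 enteric neuron and glia markers was 0.237 to 0.374 on AOM/DSS arrays, 0.340 to 0.540 on AOM arrays, 0.319 to 0.616 on DSS arrays and 0.432 to 0.753 on control arrays.

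**Figure D3:**
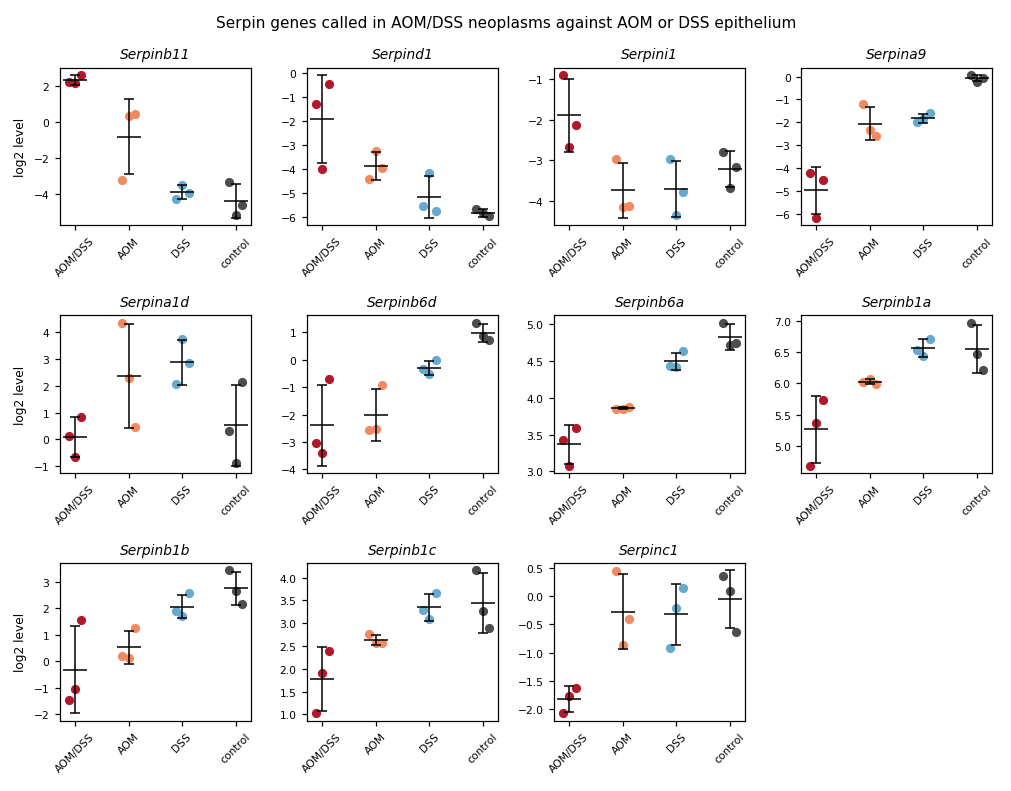
Log2 level (vertical axis, relative to each array's 75th percentile; scales differ between panels) of the 11 serpin genes called in AOM/DSS neoplasms against AOM or DSS epithelium; points are arrays, long lines group means and bars 1 SD, n = 3. Serpinb11, Serpind1 and Serpini1 are highest in AOM/DSS, and the other 8 are lowest there on average.

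The intracellular clade B genes of chromosome 13 were lower in AOM/DSS neoplasms for 5 of the 7 that passed the filter. Serpinb6d read -3.04, -3.41 and -0.69 on the AOM/DSS arrays, -2.57, -2.52 and -0.91 on the AOM arrays, -0.32, -0.52 and -0.01 on the DSS arrays, and 1.36, 0.86 and 0.73 on the control arrays. Every treated array lay below every control array, and AOM/DSS replicate 3 and AOM replicate 3 were the highest of their groups. Serpinb6d fell against control by 3.36 ± 0.65 in AOM/DSS on the log2 scale (adjusted p = 0.00325) and by 2.98 ± 0.65 in AOM (adjusted p = 0.0117). It also fell in AOM/DSS against DSS, by 2.10 ± 0.65 (adjusted p = 0.0308), and the DSS minus control difference was -1.26 ± 0.65 (adjusted p = 0.283).

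Serpinb6a, the mouse counterpart of human SERPINB6, an inhibitor of cathepsin G and trypsin-like proteases, showed little spread within groups. Its levels were 3.43, 3.08 and 3.59 on the AOM/DSS arrays, 3.85, 3.85 and 3.87 on the AOM arrays, 4.43, 4.42 and 4.63 on the DSS arrays and 5.02, 4.71 and 4.74 on the control arrays. The 4 groups did not overlap. It fell against control by 1.46 ± 0.19 in AOM/DSS (adjusted p = 0.000386) and by 0.97 ± 0.19 in AOM (adjusted p = 0.0086), and fell in AOM/DSS against DSS by 1.12 ± 0.19 (adjusted p = 0.00245). Its DSS minus control difference of -0.33 ± 0.19 did not pass (adjusted p = 0.324), nor did that of AOM/DSS minus AOM, -0.49 ± 0.19 (adjusted p = 0.0642).

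Serpinb1a, Serpinb1b and Serpinb1c are mouse copies of SERPINB1, the cytosolic inhibitor of neutrophil elastase, proteinase 3 and cathepsin G; inhibition of neutrophil proteases is known for the Serpinb1a product. Serpinb1a read 4.68, 5.37 and 5.74 on the AOM/DSS arrays, 6.02, 6.07 and 5.99 on the AOM arrays, 6.54, 6.44 and 6.72 on the DSS arrays and 6.98, 6.48 and 6.22 on the control arrays. Serpinb1b read -1.48, -1.06 and 1.55 on the AOM/DSS arrays, 0.21, 0.12 and 1.24 on the AOM arrays, 1.90, 1.71 and 2.56 on the DSS arrays and 3.42, 2.65 and 2.17 on the control arrays. Serpinb1c read 1.02, 1.91 and 2.39 on the AOM/DSS arrays, 2.77, 2.57 and 2.56 on the AOM arrays, 3.29, 3.09 and 3.66 on the DSS arrays and 4.16, 3.28 and 2.89 on the control arrays. In each of the 3 the AOM/DSS arrays lay below all DSS and control arrays, and AOM/DSS replicate 3 was the highest of its group.

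All 3 Serpinb1 genes fell in AOM/DSS against control: Serpinb1a by 1.29 ± 0.28 (adjusted p = 0.00596), Serpinb1b by 3.07 ± 0.70 (adjusted p = 0.00697) and Serpinb1c by 1.67 ± 0.38 (adjusted p = 0.00757). Against DSS they fell by 1.30 ± 0.28 (adjusted p = 0.0076), 2.39 ± 0.70 (adjusted p = 0.024) and 1.58 ± 0.38 (adjusted p = 0.0119) in the same order. In AOM against control Serpinb1b fell by 2.22 ± 0.70 (adjusted p = 0.0344). The AOM minus control differences of Serpinb1a, -0.53 ± 0.28 (adjusted p = 0.163), and Serpinb1c, -0.81 ± 0.38 (adjusted p = 0.122), did not pass. The other Serpinb1c probe fell by 3.29 against control in AOM/DSS (adjusted p = 0.0119) and by 2.48 against DSS (adjusted p = 0.0407). It also fell in AOM against control, by 2.67 (adjusted p = 0.0337), so the probes disagreed on that call.

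With slide as a block, which for this comparison sets AOM/DSS replicate 3 against the 3 control arrays beside it, the falls of Serpinb6a (-1.23, adjusted p = 0.0288) and Serpinb6d (-1.68, adjusted p = 0.0208) in AOM/DSS against control held. Those of Serpinb1a (-0.82, adjusted p = 0.192), Serpinb1b (-1.19, adjusted p = 0.156) and Serpinb1c (-1.05, adjusted p = 0.218) did not, and no AOM minus control or AOM/DSS minus DSS call of these 5 genes did. In that fit Serpinb1b turned to 0.24 in AOM against control (adjusted p = 0.849). The pan-epithelial markers were lower with them: 8 of 10 fell in AOM/DSS against control, and all 8 goblet cell genes fell, with a summed goblet level of 139 to 458 on AOM/DSS arrays and 2590 to 4030 on control arrays. Over all genes 17.5% fell. The summed level of 8 absorptive colonocyte genes was 55.1 to 77.6 on AOM/DSS arrays and 610 to 1390 on control arrays. The part of these cell types in the serpin falls was not tested, and in bulk samples fewer cells of a type and less RNA per cell cannot be told apart.

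Serpinb6b, a mouse clade B serpin that inhibits granzyme A, moved the other way from its neighbours. It read -0.70, -1.07 and -0.16 on the AOM/DSS arrays, -0.51, -1.74 and -1.64 on the AOM arrays, -1.12, -1.26 and -1.26 on the DSS arrays and -1.76, -2.54 and -1.23 on the control arrays. AOM/DSS arrays lay above all control and DSS arrays, the nearest control array being replicate 3. It rose in AOM/DSS against control by 1.20 ± 0.40 (adjusted p = 0.0402), a call that was lost with slide as a block (1.69, adjusted p = 0.0896) and without control replicates 1 and 2 (0.59, adjusted p = 0.524).

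Serpina9, on chromosome 12, was the only clade A gene called lower in AOM/DSS against control. The human gene, known as centerin, is expressed in germinal centre B cells. Its levels were -4.24, -6.18 and -4.54 on the AOM/DSS arrays, -1.22, -2.36 and -2.60 on the AOM arrays, -2.01, -1.86 and -1.61 on the DSS arrays and 0.07, -0.22 and -0.04 on the control arrays. The control arrays lay close together and above every treated array, and AOM/DSS arrays lay below all others, 2 of the 3 being well above background. In AOM/DSS it fell by 4.92 ± 0.48 against control (adjusted p = 8.2e-05), by 3.16 ± 0.48 against DSS (adjusted p = 0.00151) and by 2.92 ± 0.48 against AOM (adjusted p = 0.00362). In AOM against control it fell by 2.00 ± 0.48 (adjusted p = 0.0155), and the DSS minus control difference was -1.76 ± 0.48 (adjusted p = 0.128).

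The falls of Serpina9 in AOM/DSS held with slide as a block against control (-4.48, adjusted p = 0.00683) and against AOM (-3.41, adjusted p = 0.0177), but not against DSS (-4.19, adjusted p = 0.0518), nor did that of AOM against control (-1.07, adjusted p = 0.506). The call against control also held without control replicates 1 and 2 (-4.95, adjusted p = 0.0075). The summed level of 9 B and plasma cell markers was 21.5 to 89.2 on AOM/DSS arrays, 97.8 to 252 on AOM arrays, 169 to 290 on DSS arrays and 43.8 to 185 on control arrays, and the B cell factor Pax5 was well above background on no array. The part of these cells in the Serpina9 differences was not tested.

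Serpinc1, on chromosome 1, encodes antithrombin, the main plasma inhibitor of thrombin and factor Xa. Its brightest probe read -2.07, -1.76 and -1.63 on the AOM/DSS arrays, 0.45, -0.86 and -0.41 on the AOM arrays, -0.91, -0.21 and 0.15 on the DSS arrays and 0.36, 0.09 and -0.63 on the control arrays. The AOM/DSS arrays lay below all others, and the other 3 groups overlapped. It fell by 1.76 ± 0.39 against control (adjusted p = 0.00638), by 1.54 ± 0.39 against AOM (adjusted p = 0.0149) and by 1.5 ± 0.39 against DSS (adjusted p = 0.0156). The gene's other probe, also well above background on all 12 arrays, gave -0.69 (adjusted p = 0.216), -0.34 (adjusted p = 0.527) and -0.48 (adjusted p = 0.373) for these comparisons, so the probes disagreed on the call. With slide as a block the brightest probe was not called against any group (-1.57, adjusted p = 0.126 against control).

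Serpine2, Serpinf1, Serpinf2, Serping1, Serpinh1 and Serpina3n had higher means than control in all 3 treated groups. All but Serpinf2 had a wide spread among the control arrays. Their control SD ran from 1.1 for Serpine2 to 2.63 for Serpina3n, against 0.64 for Serpinf2. Serpine2, on chromosome 1, encodes protease nexin 1, a cell-surface inhibitor of thrombin and plasminogen activators. Its levels were -2.71, -3.19 and -2.58 on the AOM/DSS arrays, -2.80, -2.55 and -2.81 on the AOM arrays, -3.46, -2.00 and -2.85 on the DSS arrays and -5.72, -4.85 and -3.54 on the control arrays. All treated arrays lay above the control arrays, control replicate 3 just below the lowest DSS array, and 1 of 3 control arrays was well above background. It rose by 1.88 ± 0.51 in AOM/DSS (adjusted p = 0.0161) and by 1.98 ± 0.51 in AOM (adjusted p = 0.0182), and differed by 1.93 ± 0.51 in DSS (adjusted p = 0.119).

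Serpinf1 and Serpinf2 are neighbours on chromosome 11. Serpinf1 stands for pigment epithelium-derived factor, an anti-angiogenic serpin without inhibitory activity, and Serpinf2 for alpha-2-antiplasmin, the main plasmin inhibitor of plasma. Serpinf1 read 0.34, 0.12 and 0.13 on the AOM/DSS arrays, 0.92, 0.62 and 0.32 on the AOM arrays, 0.23, 1.64 and 0.14 on the DSS arrays and -1.91, -3.78 and 0.26 on the control arrays. Control replicate 3 lay among the treated arrays and the other controls far below them. Serpinf1 rose in AOM against control by 2.43 ± 0.80 (adjusted p = 0.0402), and differed by 2.01 ± 0.80 in AOM/DSS (adjusted p = 0.0737). The AOM difference was 0.37 (adjusted p = 0.696) without control replicates 1 and 2. Its other probe was called in both, at 2.23 in AOM (adjusted p = 0.0192) and 2.49 in AOM/DSS (adjusted p = 0.00835).

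Serpinf2 read -3.83, -3.33 and -3.89 on the AOM/DSS arrays, -3.86, -3.23 and -3.50 on the AOM arrays, -5.36, -5.08 and -3.94 on the DSS arrays and -5.86, -6.05 and -4.86 on the control arrays. Its level on DSS replicate 3 lay close to that on AOM/DSS replicate 3, where the detection limit was lower (-4.89, against -3.80). It was well above background on all 6 AOM/DSS and AOM arrays and on none of the DSS or control arrays. It rose against control at least 1.19-fold in AOM/DSS (fitted 1.90 ± 0.41, adjusted p = 0.00555) and at least 1.32-fold in AOM (fitted 2.06 ± 0.41, adjusted p = 0.0089).

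Serping1, on chromosome 2, encodes the C1 inhibitor, which controls the complement proteases C1r and C1s and the contact system. Its levels were 2.80, 2.15 and 2.86 on the AOM/DSS arrays, 2.99, 2.64 and 2.22 on the AOM arrays, 2.39, 3.56 and 2.39 on the DSS arrays and -0.27, -1.67 and 2.54 on the control arrays. Control replicate 3 lay inside the range of each treated group. The gene rose by 2.41 ± 0.83 in AOM/DSS (adjusted p = 0.0455) and by 2.42 ± 0.83 in AOM (adjusted p = 0.0476), and without control replicates 1 and 2 these differences were 0.07 (adjusted p = 0.954) and 0.08 (adjusted p = 0.941).

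Serpinh1, on chromosome 7, encodes HSP47, which binds procollagen in the endoplasmic reticulum and inhibits no protease. It read 1.13, 0.84 and 1.25 on the AOM/DSS arrays, 1.87, 1.54 and 1.57 on the AOM arrays, 0.78, 2.24 and 1.27 on the DSS arrays and -1.30, -1.60 and 0.91 on the control arrays. Control replicate 3 overlapped the AOM/DSS and DSS arrays but not the AOM arrays. It rose by 1.74 ± 0.58 in AOM/DSS (adjusted p = 0.0395) and by 2.32 ± 0.58 in AOM (adjusted p = 0.0171), and without control replicates 1 and 2 these differences were 0.16 (adjusted p = 0.869) and 0.75 (adjusted p = 0.381). Of 16 collagens and collagen-modifying enzymes, 9 rose in AOM/DSS and 10 in AOM against control, with none lower, and medians of 2.11 and 2.21. Over all genes 17.2% and 14.8% rose, with medians of 0.03 and -0.01. Col4a2 and Col4a1, chains of basement membrane collagen, rose by 3.54 and 3.42 in AOM/DSS, and without control replicates 1 and 2 their differences were 1.27 (adjusted p = 0.167) and 1.55 (adjusted p = 0.113).

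Serpina3n, a secreted mouse acute-phase serpin that inhibits granzyme B and neutrophil proteases, lies in the Serpina3 cluster on chromosome 12. Its levels were 0.19, -0.19 and -0.84 on the AOM/DSS arrays, -0.02, -0.51 and -0.44 on the AOM arrays, -0.63, 1.25 and -0.57 on the DSS arrays and -3.53, -5.97 and -0.70 on the control arrays. Control replicate 3 lay just above the lowest AOM/DSS array, and replicates 1 and 2 far below. It rose by 3.12 ± 1.04 in AOM/DSS (adjusted p = 0.039) and by 3.08 ± 1.04 in AOM (adjusted p = 0.0444), and the DSS difference of 3.41 ± 1.04 did not pass (adjusted p = 0.149). Only 1 of 3 control arrays was well above background. Without control replicates 1 and 2 the difference was 0.43 in AOM/DSS (adjusted p = 0.753) and 0.38 in AOM (adjusted p = 0.756).

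Serpina3f, another antichymotrypsin-like copy of the cluster, read -2.99, -4.20 and -2.46 on the AOM/DSS arrays, -2.49, -4.21 and -3.82 on the AOM arrays, -3.95, -3.24 and -5.02 on the DSS arrays and -5.44, -5.78 and -4.20 on the control arrays. AOM/DSS replicate 2 and control replicate 3 were nearly equal, and no control array was well above background. It rose at least 1.64-fold in AOM/DSS against control (fitted 1.92 ± 0.64, adjusted p = 0.0392), and its other probe gave 1.77 (adjusted p = 0.0861). The call was lost without control replicates 1 and 2 (0.98, adjusted p = 0.539). Probe sequences were not used here, so signal from near-identical copies in the Serpina1, Serpina3, Serpinb1, Serpinb6 and Serpinb9 clusters cannot be told apart.

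**Figure D4:**
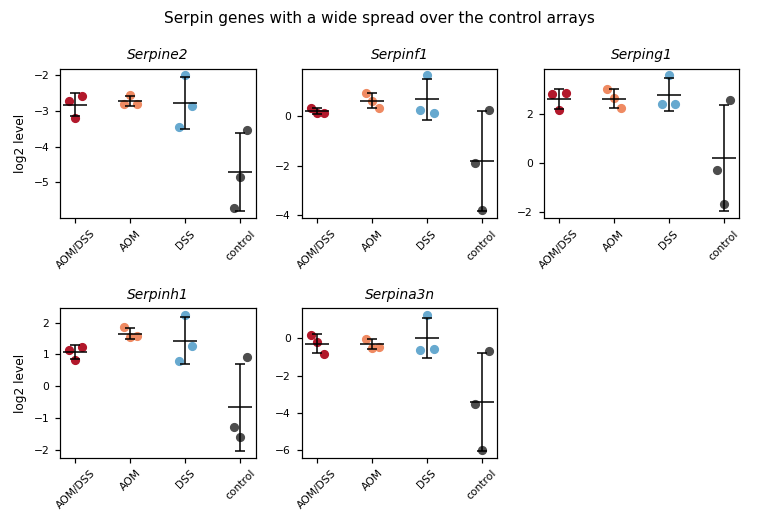
Log2 level (vertical axis, relative to each array's 75th percentile; scales differ) of 5 serpin genes with a wide spread over the control arrays; points are arrays, long lines group means and bars 1 SD, n = 3. In each panel control replicate 3 lies among or just below the treated arrays and control replicates 1 and 2 lie lower.

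Fibroblast and endothelial markers split the control arrays the same way, whereas the summed level of macrophage markers was lower on every control array than on the treated arrays. Single macrophage genes differed on control replicate 3. There Adgre1 (0.34), Csf1r (1.41), Mrc1 (-0.49) and Msr1 (-2.49) each lay above some treated array. Cd14, C1qa, C1qb, Fcgr1 and Itgam lay below every treated array. All of these genes but Cd14 read lower on control replicates 1 and 2 than on replicate 3. The summed level of 10 fibroblast markers was 139 to 188 on AOM/DSS arrays, 106 to 153 on AOM arrays, 103 to 149 on DSS arrays, and 25.8, 13.2 and 166 on control replicates 1, 2 and 3. That of 10 endothelial markers was 8.58 to 10.2, 9.92 to 15.9 and 8.23 to 16.2 on AOM/DSS, AOM and DSS arrays, and 3.31 and 3.66 on control replicates 1 and 2, with replicate 3 inside the range of the AOM and DSS arrays. Macrophage markers summed to 32.1 to 50.7, 38.7 to 53.6 and 33.3 to 58.2 on the treated groups in that order, and to 16.3, 10.5 and 20.8 on the controls. In AOM/DSS against control 4 of 10 fibroblast, 3 of 10 endothelial and 7 of 9 macrophage genes rose, and none fell. Over all genes 17.2% rose and 17.5% fell. The part of these cell types in the rises of Serpine2, Serpinf1, Serpinf2, Serping1, Serpinh1 and Serpina3n was not tested.

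Without control replicates 1 and 2, 3 serpin genes were called in AOM/DSS against control, where 8.42% of all genes were: Serpinb11 (6.97, adjusted p = 0.0114), Serpina9 (-4.95, adjusted p = 0.0075) and Serpinb6a (-1.37, adjusted p = 0.024). None was called in AOM against control, where 0.0791% of all genes were. In that setting Serpine2 differed from control by 0.71 in AOM/DSS (adjusted p = 0.432) and 0.82 in AOM (adjusted p = 0.352), and Serpinf2 by 1.17 (adjusted p = 0.211) and 1.33 (adjusted p = 0.214). The lost falls in AOM/DSS against control were -3.11 for Serpinb6d (adjusted p = 0.0938), -0.95 for Serpinb1a (adjusted p = 0.169), -2.5 for Serpinb1b (adjusted p = 0.169), -1.12 for Serpinb1c (adjusted p = 0.187) and -1.19 for Serpinc1 (adjusted p = 0.209). In AOM against control those of Serpinb6d, Serpinb6a, Serpinb1b and Serpina9 were -2.73, -0.88, -1.65 and -2.03 (adjusted p = 0.193, 0.175, 0.353 and 0.194). Leaving out control replicate 3 instead gave 19 serpin genes called in AOM/DSS (36.7% of all genes) and 6 in DSS against control (7.04% of all). With slide as a block, 5 were called in AOM/DSS against control, where 11.6% of all genes were (Serpina9, Serpinb11, Serpinb6a, Serpinb6d and Serpind1) and none in AOM against control, where 4 of 18953 genes were. With another background correction, normexp, the AOM/DSS minus control differences of Serpine2 (-0.84), Serpinf2 (-1.18) and Serpina3f (-0.94) turned negative.

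**Figure D5:**
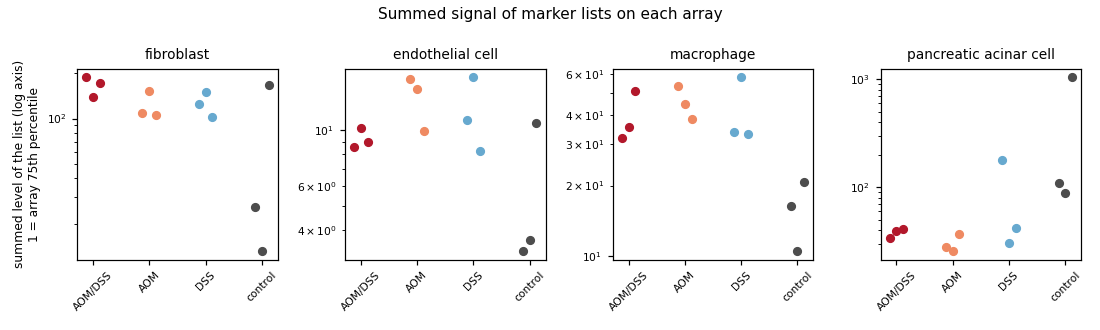
Summed linear level (log axis; 1 is the array's 75th percentile) of fibroblast, endothelial, macrophage and pancreatic acinar marker lists on each of the 12 arrays, by group. Control replicates 1 and 2 lie below all treated arrays for the first 3 lists, and control replicate 3 does so for the macrophage list only. Control replicate 3 has the highest acinar sum at 1040.

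Serpina1d, a mouse copy of alpha-1-antitrypsin, the secreted inhibitor of neutrophil elastase, was called in AOM/DSS against DSS alone. Its levels were 0.11, -0.67 and 0.82 on the AOM/DSS arrays, 4.37, 2.3 and 0.47 on the AOM arrays, 2.06, 3.75 and 2.84 on the DSS arrays and 0.33, -0.87 and 2.13 on the control arrays. It fell in AOM/DSS against DSS by 2.80 ± 0.97 (adjusted p = 0.0452), a call lost with slide as a block (-6.03, adjusted p = 0.0749). Serpina1c was high on the same arrays, at -0.20 on AOM replicate 1 and -0.70 on DSS replicate 2, against -4.37 to -1.94 on the other 10. Its AOM/DSS minus DSS difference was -2.04 ± 0.85 (adjusted p = 0.0816).

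Another 6 filtered genes were not called in any comparison. Serpinb5 encodes maspin, a non-inhibitory serpin of epithelia described as a tumour suppressor in breast, and ranged from 3.83 to 4.90 over the 12 arrays. Its differences against control were 0.39 ± 0.26 in AOM/DSS, 0.49 ± 0.26 in AOM and 0.74 ± 0.26 in DSS (adjusted p = 0.26, 0.153 and 0.17), and the DSS arrays lay above all control arrays. Serpinb9, an inhibitor of granzyme B, differed by 0.48 ± 0.40 in AOM/DSS against control (adjusted p = 0.383). Its other probe, which also passed the filter, gave 1.44 (adjusted p = 0.0971). Serpinb8, whose human counterpart inhibits furin, read -4.59, -3.66 and -4.07 on the AOM/DSS arrays and -5.92, -6.10 and -4.14 on the control arrays (1.28 ± 0.48, adjusted p = 0.0622). Its probe passed the background test on each AOM/DSS array, where the detection limit was lower, and on no other array, although control replicate 3 read higher than AOM/DSS replicate 1. Serpinb3c, a mouse relative of the squamous cell carcinoma antigens, Serpina3j and Serpina3m had differences against control between -0.51 and 1.45 in the 3 treated groups.

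The other 28 serpin genes did not pass the filter. Serpina3c was well above background on 6 arrays, Serpine3 and Serpinb9g each on 2 AOM/DSS arrays. Serpina5 (protein C inhibitor) was so on AOM/DSS replicate 3 (-3.82), Serpinb3b on AOM replicate 1 (-3.01), Serpina1f on DSS replicate 2 (-2.55) and Serpini2, a pancreas serpin, on control replicate 3 (-2.75). On that last array the summed level of 12 pancreatic acinar markers was 1040, against 110 and 89.5 on control replicates 1 and 2. The 21 genes on no array were Serpina10, Serpina11, Serpina12 (vaspin), Serpina3a, Serpina3b, Serpina3k, Serpina4-ps1, Serpina6 (corticosteroid-binding globulin), Serpina7 (thyroxine-binding globulin), Serpinb10, Serpinb12, Serpinb13, Serpinb2 (plasminogen activator inhibitor 2), Serpinb3a, Serpinb3d, Serpinb7, Serpinb9b, Serpinb9c, Serpinb9d, Serpinb9e and Serpinb9f. For these the arrays give only a bound.

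By position, 18 of the 55 genes lie on chromosome 12 (all of clade A but Serpina7), 13 on chromosome 13 and 14 on chromosome 1. On chromosome 13 all 7 that passed are Serpinb1, Serpinb6 or Serpinb9 copies; 5 fell and Serpinb6b rose in AOM/DSS against control. On chromosome 1 Serpinb11 and Serpine2 rose, Serpinc1 fell, and Serpinb3c, Serpinb5 and Serpinb8 were not called. Of the 7 on chromosome 12, Serpina3f and Serpina3n rose and Serpina9 fell.

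Beside the list counts here and below, 17.2% of all genes were called higher and 17.5% lower in AOM/DSS against control. In AOM against control the shares were 14.8% and 17.6%. Among the lists of proteases that serpins act on, the plasminogen system gave rises of both plasminogen activators. Plat and Plau, the tissue and urokinase plasminogen activators, rose by 4.93 ± 0.42 (adjusted p = 3.96e-05) and 3.52 ± 1.04 (adjusted p = 0.0237) in AOM/DSS against control, and by 3.14 ± 0.42 (adjusted p = 0.00332) and 3.24 ± 1.04 (adjusted p = 0.0367) in AOM. The urokinase receptor Plaur rose by 1.33 and 2.08 in AOM/DSS and AOM, and in DSS Plat differed by 1.67 ± 0.42 (adjusted p = 0.11). Without control replicates 1 and 2, Plat differed by 4.74 in AOM/DSS (adjusted p = 0.00488) and 2.95 in AOM (adjusted p = 0.112), and Plau by 1.23 (adjusted p = 0.474) and 0.95 (adjusted p = 0.556). Of 7 genes of this list, 3 rose and 2 fell in AOM/DSS, and 4 rose and 1 fell in AOM. The receptor Plgrkt fell by 1.31 in AOM/DSS. Serpine2, which inhibits these activators, was also called higher in both groups. Its differences in AOM/DSS and AOM were 0.71 and 0.82 without control replicates 1 and 2, and -0.84 and -0.55 with normexp.

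Of 8 neutrophil and mast cell proteases and enzymes, 2 rose in AOM/DSS, Mpo by 1.91 and Cma1, mast cell chymase, by 1.17; without control replicates 1 and 2 these were 1.17 (adjusted p = 0.215) and 0.68 (adjusted p = 0.483). In AOM 5 rose, with Mpo at 2.5, Mcpt2 at 2.21 and Mcpt1 at 2.15, and none of these 3 was called without those arrays (adjusted p = 0.168, 0.424 and 0.256). Mpo was well above background on 1 of 3 control arrays. The elastase and proteinase 3 genes Elane and Prtn3, known targets of SERPINB1, were well above background on no array. The 9 neutrophil markers summed to 64.1 to 207 on AOM/DSS arrays, 7.97 to 20.5 on AOM arrays, 1.92 to 21.0 on DSS arrays and 0.421 to 2.03 on control arrays. Of 5 granzyme and perforin genes, Gzmc rose at least 2.67-fold in AOM/DSS (fitted 3.12, adjusted p = 0.0117) and Gzmm at least 1.58-fold in AOM (fitted 1.31, adjusted p = 0.0339), each against control arrays of which none was well above background.

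Of 9 complement genes, whose C1 proteases Serping1 controls, 6 rose in AOM/DSS and 3 in AOM against control, and none fell. Over all genes 34.7% were called in either direction in AOM/DSS and 32.4% in AOM. C1s1 rose by 2.65 and C1qa by 2.59 in AOM/DSS, and C1qa by 2.82 in AOM. C1s1 read 2.73, 1.99 and 3.33 on AOM/DSS arrays and -0.54, -1.80 and 2.43 on control arrays, the same split of the controls as for Serping1. Of 8 coagulation genes 2 rose in AOM/DSS, the thrombin receptor thrombomodulin (Thbd, 2.23) and the protein C receptor (Procr, 2.17). Without control replicates 1 and 2 the AOM/DSS minus control difference was 0.25 for C1s1 (adjusted p = 0.811), 1.03 for C1qa (adjusted p = 0.335), 0.36 for Thbd (adjusted p = 0.682) and -0.03 for Procr (adjusted p = 0.976).

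Of 9 epithelial proteases, 3 fell and 1 rose in AOM/DSS against control. Klk1, tissue kallikrein, fell by 6.16 ± 0.63 (adjusted p = 9.51e-05), and Prss8, prostasin, by 1.28 ± 0.22 (adjusted p = 0.00182), while Prss22 rose by 1.10. The Klk1 fall held without control replicates 1 and 2 (-6.04, adjusted p = 0.00945), and Prss8 (-1.12, adjusted p = 0.067) and Prss22 (0.48, adjusted p = 0.49) were not called. In AOM the Klk1 difference of -1.72 ± 0.63 did not pass (adjusted p = 0.0577). Of 8 lysosomal cysteine proteases, Lgmn and Ctsc rose and Ctss fell in both AOM/DSS and AOM; without those arrays none of the 3 was called in AOM/DSS (0.77, 0.54 and -1.06, adjusted p = 0.393, 0.448 and 0.135).

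Among 22 inhibitors of other families, 2 moved in all 3 treated groups. Spink5, a Kazal-type inhibitor of kallikreins, was well above background on no AOM/DSS array, 1 of 3 AOM arrays, 1 of 3 DSS arrays and all control arrays. In AOM/DSS against control it fell at least 34.7-fold (fitted -7.15 ± 0.69, adjusted p = 7.53e-05), and its fitted falls were 4.52 ± 0.69 in AOM (adjusted p = 0.00487) and 4.58 ± 0.69 in DSS (adjusted p = 0.0268); without control replicates 1 and 2 the AOM/DSS call alone held (-7.22, adjusted p = 0.00634; AOM 0.127, DSS 0.36). Wfdc18, a WAP-domain protein, rose by 6.80 ± 0.70 (adjusted p = 0.000101), 6.11 ± 0.70 (adjusted p = 0.00277) and 4.16 ± 0.70 (adjusted p = 0.0474) in the same order, and was called in all 3 without those arrays. In AOM/DSS 3 of the 22 rose and 6 fell, among them Spink1 (-3.18), an inhibitor of trypsin, and the cystatin Stfa2, at least 2.73-fold higher (fitted 3.53) than on control arrays, none of which was well above background for it.

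Over the 12 arrays the profile of Serpina3n was most like those of Stab1 (Pearson r = 0.984), Thbs3 (0.979) and Mfap2 (0.973), and that of Serpinb5 most like those of Zfand5 (0.916), Cwh43 (0.838) and Clca4b (0.825). These correlations describe arrays that share groups and the split of the controls, and carry no test.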

How the data were processed

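The deposited scanner files hold single-colour intensity values of 12 arrays written by Agilent Feature Extraction 10.7 per the submitters' processing notes. Per the file headers, processed intensity has background removed and no scaling between arrays. The deposited series matrix holds log2 values, quantile normalized by the authors as its sorted columns show, and served as an alternative. Here the log2 of intensity was centred on the 75th percentile of its array. Control and outlier spots were left out, spots of a probe averaged, and the probe with the highest mean over 12 arrays kept per gene if every array of some group was well above background, which left 18953 genes, 13514 with a symbol. Of 41174 probes, 27198 carried a RefSeq symbol (GRCm38.p6 table) and 13976 none.

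Group means were fitted with limma 3.58.1 in R 4.3.3 (lmFit, eBayes, 8 residual and 2.64 prior degrees of freedom), with Benjamini-Hochberg adjustment over all genes and calls at 0.05; scripts were tested on simulated data. Serpin genes called by this test or the F test have their value on every array; from each list of proteases or inhibitors up to 4 called genes, or 2 where none was called, could be named. Members and lists were chosen with earlier results of these data known. The alternatives were normexp background (offset 50), other scalings and filters, averaged probes, slide or replicate number as a block, and leaving out arrays. Of the filtered genes, 1 enters the counts and is not reported here by itself.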

Additional observations from a re-analysis of the deposited data

How the results depend on the processing

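Shares in brackets are of all genes. Of 44 called serpin differences, 41 kept their call with median scaling, quantile normalization or the authors' series matrix values, 44 with slide as a random block, 37 with the replicate block, 15 with normexp background correction, 8 with slide as a fixed block and 18 without control replicates 1 and 2. Those of Serpina9 in AOM/DSS against control and AOM, and of Serpinb11 against control and DSS, kept their call under all 23 alternatives run on them. The correlation within slides in the random block was -0.16. That fit called a larger share of all genes in every comparison but AOM/DSS against AOM. In DSS against control the share was 13.2%, against 0.327% as reported. Keeping all 44 calls in that fit is therefore a weak check on slide. The exclusion of control replicates 1 and 2 together and the use of a gene's other probe were chosen after seeing the data. That exclusion leaves control replicate 3 as the only control array.

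The sign turned with normexp for Serpina3f (-0.94), Serpine2 (-0.84) and Serpinf2 (-1.18) in AOM/DSS against control, Serpine2 (-0.55) and Serpinf2 (-0.76) in AOM against control and Serpini1 (-0.01) in AOM/DSS against DSS. It also turned with slide as a fixed block for Serpinb1b (0.24) in AOM against control. The cause was not tested.

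Serpin genes called numbered 4 (13%) by the F test, 6 (14.6%) in AOM/DSS and 3 (9.82%) in AOM against control, and 2 (6.66%) and 4 (10.0%) in AOM/DSS against AOM and DSS with normexp. With slide as a fixed block the F test called 5 (13.2%), AOM/DSS against control 5 (11.6%), AOM against control 0 (0.0211%) and AOM/DSS against DSS 1 (2.31%). With no filter the F test called 31 (51.1%), AOM/DSS against control 35 (43.0%) and AOM/DSS against DSS 26 (41.2%) of 55 Serpin genes. Of the 35, 24 were lower, and of the 26, 22, where 26.3% and 28.0% of the calls over all genes were higher and many values lie at background. With a filter on all 12 arrays, which left 12 Serpin genes, the numbers were 9 (57.3%), 9 (39.2%), 5 (33.6%), 2 (39.0%) and 7 (39.5%) for the F test, AOM/DSS and AOM against control, and AOM/DSS against AOM and DSS. Without control replicates 1 and 2 they were 7 (27.5%), 3 (8.42%) and 0 (0.0791%) for the F test, AOM/DSS and AOM against control. Median scaling, under which the median of all genes was -0.36 in AOM/DSS against AOM, against -0.04 as reported, gave 9 there (39.5%), and slide as a random block gave 8 in DSS against control (13.2%).

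Leaving out each array in turn gave 11 to 20 Serpin genes by the F test, 10 (without AOM/DSS replicate 3) to 19 (without control replicate 3) in AOM/DSS, 4 (without AOM replicate 2) to 14 in AOM and 0 to 6 (without control replicate 3) in DSS against control. It gave 1 (without AOM/DSS replicate 1) to 6 (without AOM/DSS replicate 3) in AOM/DSS against AOM, 6 (without AOM/DSS replicate 1) to 13 in AOM/DSS against DSS and 0 to 1 in DSS against AOM. With the replicate block, 14 Serpin genes were called by the F test, 15 in AOM/DSS and 9 in AOM against control. Deviations of same-numbered arrays correlated at -0.27 to 0.24 over 18 pairs (median 0.08, 9 of 18 over 0.1; median -0.08 between different numbers), so not every pair was over 0.1 and the numbers were not taken to pair the arrays. Over all genes, median scaling moved the share of calls that were higher to 39.1% from 49.7% in AOM/DSS against control, to 33.7% from 52.4% against AOM and to 35.2% from 49.1% against DSS. Signal over background limits, among others, Serpind1, Serpinf2, Serpina3f, Serpinb8, Serpina9 in AOM/DSS, Serpini1 in AOM and DSS, the control values of Serpine2 and Serpina3n, and the DSS and control values of Serpinb11.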
